A study of Mus musculus with 2 samples.

Results

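The sites described here were the strong DNase-hypersensitive sites of untreated RAW264 cells that carried a single, narrow peak after RANKL. A member was a peak of the list without RANKL on chromosomes 1 to 19 or X with a score of at least 170. It had to be overlapped by exactly 1 peak of the RANKL list, by at least 1 bp, and that peak had to be under 700 bp wide. There were 1188 such sites among the 13492 peaks of the list without RANKL. They made up 44.2% of the 2689 strong sites, meaning peaks on these chromosomes that scored 170 or more. Of all 13479 peaks on these chromosomes, strong and weaker, 40.3% had exactly 1 RANKL peak under 700 bp. The score without RANKL, the number of overlapping RANKL peaks and the width of the RANKL peak chose the members, so these values are descriptions and carry no test.

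DNase I cuts DNA most readily where nucleosomes have been moved aside, as at active promoters, enhancers and insulators. RANKL is the cytokine that turns cells of the macrophage lineage into osteoclasts, the cells that resorb bone, and its receptor signals through TRAF6 to NF-kappaB, AP-1 and NFATc1. Sites open in a macrophage and still open early in osteoclast formation are therefore candidates for regulatory elements that both states use.

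The study had 2 libraries of RAW264, a mouse macrophage-like cell line, and 1 library per group. The first came from cells grown without RANKL. The second came from cells treated with GST-RANKL, RANKL fused to glutathione S-transferase, at 234 ng/ml for 24 hours. Each library gave 1 peak list with a score per peak, the authors' own value. No difference between the lists has a replicate error, no p-value was computed, and intervals on shares are 95% Wilson intervals that cover counting error only. The list without RANKL held 13492 peaks with a median width of 1738 bp, and the RANKL list held 16447 peaks with a median width of 233 bp. The sources used here give neither read depth nor calling settings, so a response to RANKL cannot be told apart from a difference in depth or calling between the libraries. No mm9 gene annotation or genome was used here. Sites are therefore named by position, 1-based on mm9, their sequences are not shown, and the identity of the cells was not checked against marker genes.

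The strong sites divided into 4 kinds by what the RANKL list held at them. Besides the 1188 members, 1033 strong sites (38.4%, interval 36.6 to 40.3%) had 2 or more RANKL peaks. Another 360 (13.4%, interval 12.2 to 14.7%) had 1 RANKL peak of 700 bp or wider. The remaining 108 (4.02%, interval 3.34 to 4.83%) had none. Over all 13479 peaks on these chromosomes, 16.7% had 2 or more RANKL peaks and 39.4% had none.

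The word narrow holds only against the limit of 700 bp. The RANKL peaks at the members were 81 to 699 bp wide with a median of 442 bp (quartiles 320 and 550 bp). That is wider than the median of 233 bp over the whole RANKL list, of which 95.9% of peaks were under 700 bp. Among the 1548 strong sites with exactly 1 RANKL peak the widths ran on through the limit without a gap. There were 302 sites with RANKL peaks of 400 to 499 bp, 236 of 500 to 599 bp, 186 of 600 to 699 bp, 135 of 700 to 799 bp and 86 of 800 to 899 bp.

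**Figure D1:**
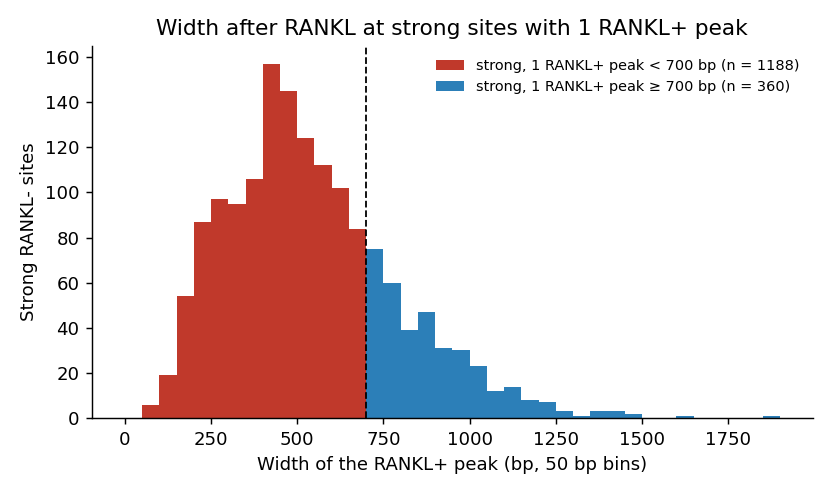
Number of strong sites (vertical axis) by the width of their single RANKL peak in bp (horizontal axis, 50 bp bins), for the 1188 sites under 700 bp and the 360 sites at 700 bp or wider. The dashed line marks the 700 bp limit, and the counts fall across it without a gap.

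Sites near each limit show how close the choice was. The member with the lowest score lay on chromosome 6 at 122257975 to 122260253 (score 170). Next came one on chromosome 9, at 52095132 to 52096963, with a score of 170.01. Just under the limit was a site on chromosome 16, at 18497951 to 18499741, that scored 169.94. The site before it, on chromosome 15 at 50526876 to 50530383, scored 169.92. At the width limit, members on chromosome 6 at 136751581 to 136754222, chromosome 11 at 52044652 to 52046477 and chromosome 12 at 9036013 to 9037993 each had a RANKL peak of 699 bp. Beyond it, the closest site was on chromosome 13, at 5843556 to 5845574, with a RANKL peak of 700 bp. It was followed by one on chromosome 1 (193915441 to 193917728) with a RANKL peak of 702 bp.

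Members were found on all 20 chromosomes considered, from 12 on chromosome X to 116 on chromosome 7. On 19 of these chromosomes they made up between 37.1% (chromosome 18) and 54.5% (chromosome X) of the strong sites. Chromosome 3 lay below this range, with 32 members among 124 strong sites (25.8%, interval 18.9 to 34.2%). Its interval overlapped those of several other chromosomes, as on chromosome 18 (26.8 to 48.9%) and chromosome 14 (30.6 to 51.2%). On chromosome X the 12 members among 22 strong sites gave a wide interval of 34.7 to 73.1%.

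**Figure D2:**
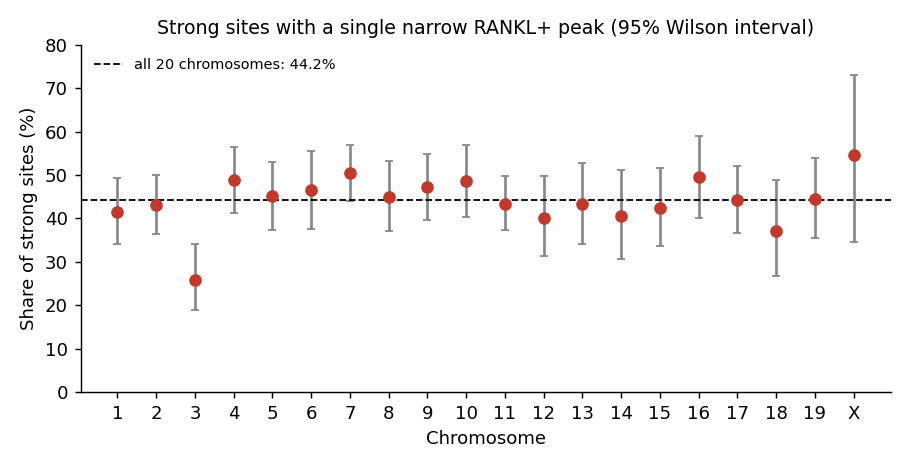
Members as a percentage of all strong sites (vertical axis) on each chromosome (horizontal axis); points are the shares and bars the 95% Wilson intervals, and the dashed line is the share over all chromosomes, 44.2%. Chromosome 3, at 25.8%, has the lowest share.

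The low share on chromosome 3 lay between 55 and 130 Mb, a segment that was picked on these same data for its many RANKL peaks. In the segment 19 of 91 strong sites were members (20.9%, interval 13.8 to 30.3%). In the rest of chromosome 3 there were 13 of 33 (39.4%, interval 24.7 to 56.3%), and on the other chromosomes 1156 of 2565 (45.1%, interval 43.2 to 47.0%). Strong sites with several RANKL peaks took a similar share in the segment (39.6%, interval 30.1 to 49.8%) and on the other chromosomes (38.3%, interval 36.4 to 40.2%). Strong sites whose single RANKL peak was wide took a larger share in the segment, 36 of 91 (39.6%, interval 30.1 to 49.8%), than on the other chromosomes, 321 of 2565 (12.5%, interval 11.3 to 13.9%). In the segment, 0 of 91 strong sites lacked a RANKL peak, which allows a share of up to 3.30% (3 counts of 91) or, by the upper Wilson limit, 4.05%.

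Among strong sites with exactly 1 RANKL peak, that peak had a median width of 782 bp in the segment (quartiles 632 and 1009 bp, n = 55). On the other chromosomes the median was 496 bp (quartiles 360 and 664 bp, n = 1477). The same sites were also broader without RANKL in the segment, with medians of 2516 against 2025 bp. Their median scores without RANKL were close, at 225 and 217, while the median percentile of the RANKL peak within its list was 95.2 in the segment, 94.9 in the rest of chromosome 3 (n = 16) and 90.6 on the other chromosomes. A higher median rank was thus also seen in the rest of chromosome 3, but over only 16 sites and without an interval.

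The kind of strong site went with how broad and how high the site was before RANKL. With the strong sites cut into 5 equal parts by width without RANKL, members made up 66.2% (interval 62.1 to 70.1%) of the narrowest part, at 507 to 1790 bp. They made up 48.8%, 46.8% and 31.8% of the next parts in order. In the broadest part, at 2607 to 6265 bp, the share was 27.1% (interval 23.6 to 31.0%). Strong sites with several RANKL peaks made up 23.2% of the narrowest part and 47.8% of the broadest. Those with 1 wide RANKL peak made up 5.19% and 20.8%. A broader peak has more room for a second RANKL peak, and how far the rule alone gives this order was not tested.

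By score, members were 52.0% (interval 48.9 to 55.1%) of the strong sites that scored from 170 to under 200 and 43.1% of those from 200 to under 250. The share was 41.6% from 250 to under 300, 33.3% from 300 to under 400, and 16.9% (14 of 83, interval 10.3 to 26.3%) from 400 to under 500. At scores of 500 or more it stood at 38.1% again (24 of 63, interval 27.1 to 50.4%). These highest sites are described below.

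The broad peaks of the members, a width the rule did not use, were 507 to 4781 bp wide with a median of 1967 bp (quartiles 1733 and 2248 bp). Strong sites with a wide RANKL peak had a median of 2285 bp, strong sites with several RANKL peaks 2192 bp, and strong sites with none 2002 bp. The 4242 weaker sites, which scored under 170 and had a single RANKL peak under 700 bp, had a median of 1707 bp. The members' broad peak was a median of 4.60 times as wide as its RANKL peak (quartiles 3.61 and 6.44), and at least 2.09 times at every member. The ratio was 10 or more at 93 members (7.83%, interval 6.43 to 9.50%). At the weaker sites the median ratio was higher, 6.47, and 14.9% had a ratio of 10 or more (interval 13.8 to 16.0%). At strong sites with a wide RANKL peak the median ratio was 2.66, and 0 of 360 reached 10 (upper limit 1.06%). A large ratio was thus not particular to the members.

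The RANKL peak sat near the middle of the broad peak. It lay wholly inside at 1187 of 1188 members. The exception was on chromosome 5 at 140797104 to 140798576, where the RANKL peak began at 140797076, before the broad peak. Lying wholly inside was not particular to the members. It was so at 4226 of 4242 weaker sites and at 360 of 360 strong sites with a wide RANKL peak. The distance between the 2 centres had a median of 141 bp (quartiles 65.9 and 266 bp) and was 100 bp or less at 444 members (37.4%, interval 34.7 to 40.2%). It was 500 bp or less at 1108 members (93.3%, interval 91.7 to 94.6%).

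As a share of the distance from the centre of the broad peak to its edge, the offset had a median of 14.7% (quartiles 6.67 and 26.3%). It was over 50% at 36 members (3.03%, interval 2.20 to 4.17%). No side was favoured: the RANKL centre lay toward lower coordinates at 601 members, toward higher coordinates at 584 and exactly at the centre at 3. The broad peak extended a median of 736 bp past the RANKL peak on the lower side and 743 bp on the higher side. Without gene annotation these sides could not be read as upstream or downstream of a gene.

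**Figure D3:**
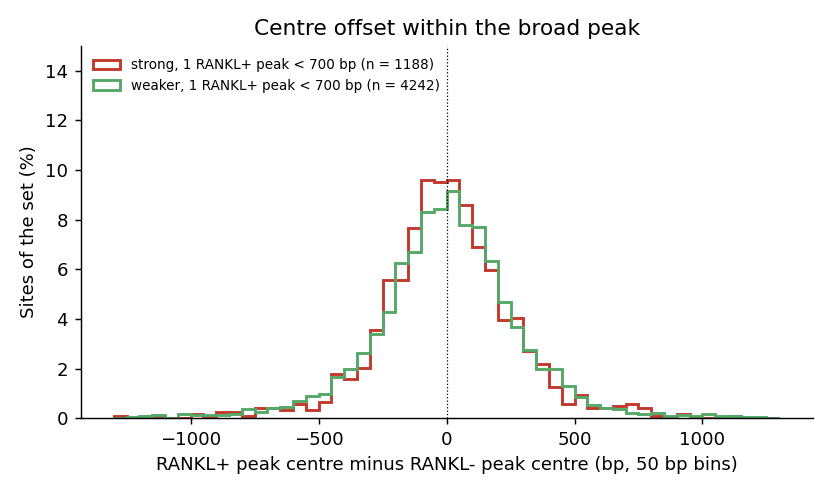
Distance from the centre of the broad peak to the centre of its RANKL peak in bp (horizontal axis, 50 bp bins, negative toward lower coordinates) as a percentage of the sites in each set (vertical axis), for the 1188 members and the 4242 weaker sites with 1 RANKL peak under 700 bp. Both curves are centred on 0; 15 weaker sites lie beyond 1300 bp and are not drawn.

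Weaker sites with a single narrow RANKL peak were placed in a like way, with a median distance of 157 bp (quartiles 72.5 and 288 bp). Relative to the size of the broad peak they were farther from the centre, with a median of 18.6% of the distance to the edge. Their RANKL peaks were narrower, with a median of 269 bp. The RANKL peak covered the centre of the broad peak at 65.4% of members (interval 62.7 to 68.1%), at 45.9% of the weaker sites (interval 44.4 to 47.4%) and at 88.9% of strong sites with a wide RANKL peak (interval 85.2 to 91.7%). The median RANKL widths of these 3 sets, 442, 269 and 854 bp, had the same order. Whether the widths account for the coverage was not tested.

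Within bands of equal RANKL width the order of members and weaker sites varied. With RANKL peaks of 200 to 299 bp, members had a median of 165 bp (quartiles 75.5 and 300.1 bp, n = 184) and weaker sites 152 bp (quartiles 69.5 and 284 bp, n = 1448). With RANKL peaks of 400 to 499 bp the medians were 140 bp (n = 302) and 141 bp (n = 532). With RANKL peaks of 600 to 699 bp they were 130 bp (quartiles 66.5 and 229 bp, n = 186) and 160 bp (quartiles 64.5 and 302 bp, n = 109). The quartile ranges overlapped in these 3 bands.

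Among the members the offset was smaller where the RANKL score was higher. With the members cut into 4 parts by RANKL score, the median distance between centres was 202 bp in the lowest part (quartiles 93.9 and 378 bp, n = 298). In the following parts it was 153, 116 and 106 bp, the last with quartiles of 43.0 and 209 bp (n = 297). It was larger in broader peaks, from a median of 105 bp in the narrowest of 4 equal parts to 273 bp in the broadest. The broadest part was also the one farthest off centre in relative terms, at a median of 21.0% of the distance to the edge, against 12.2 to 13.9% in the other 3 parts.

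The 4 members with the largest offsets had broad peaks of over 3 kb. On chromosome 3 the broad peak at 90846121 to 90850266 (4146 bp) had its RANKL peak at 90846791 to 90847093, with centres 1252 bp apart and a RANKL score of 52.6. On chromosome 19 the broad peak at 16158581 to 16161695 had its RANKL peak at 16158747 to 16159234, 1148 bp off centre. On chromosome 8, a broad peak at 23915220 to 23919898 and a RANKL peak at 23918375 to 23919000 had centres 1129 bp apart. The last, on chromosome 2 at 105513702 to 105517157, had a RANKL peak at 105514351 to 105514588, 960 bp off centre. At 3 of the 4 the RANKL peak lay toward lower coordinates.

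Score ranks were read within each list only. Without RANKL, the members scored 170 to 3109 with a median of 208 (quartiles 186 and 252), which placed the median member at percentile 88.6 of its list. Their RANKL peaks scored 50.2 to 3187 with a median of 185 (quartiles 113 and 267). The median percentile within the RANKL list was 87.3 (quartiles 72.8 and 93.8). The first of these ranks was fixed by the rule at 80.03 or more, and the second was not.

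At 1069 members (89.98%, interval 88.1 to 91.6%) the RANKL peak was in the upper 50% of its list by score. At 782 (65.8%, interval 63.1 to 68.5%) it was in the upper 20%, and at 486 (40.9%, interval 38.1 to 43.7%) in the upper 10%. Strong sites with a wide RANKL peak ranked higher, at a median percentile of 96.9, with 335 of 360 in the upper 10%. The weaker sites ranked lower, at a median of 57.8, with 210 of 4242 in the upper 10%. The limit of 700 bp alone kept the 335 strong sites with a wide RANKL peak in the upper 10% out of the members. Over the 1188 members the RANKL score and RANKL width had a Spearman rho of 0.66, and the scores in the 2 lists had a rho of 0.51. These are descriptions over sites of the same libraries, and sites are not replicates.

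Members at the very top without RANKL were often at the top with RANKL. Of the 229 members in the upper 5% of the list without RANKL, 127 (55.5%, interval 49.0 to 61.8%) were also in the upper 5% of the RANKL list. The same share was not computed for the other strong sites, so it is not shown to be particular to the members.

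At the other end, 119 members (10.0%, interval 8.44 to 11.9%) had a RANKL peak in the lower 50% of its list, and 38 of them (3.20% of members, interval 2.34 to 4.36%) in the lower 25%. The 38 had a median score of 187 without RANKL and 52.9 with RANKL, close to the lowest score of that list, 50. Their RANKL peaks were narrow, with a median of 184 bp, and far from the centre, with a median distance of 336 bp. Their broad peaks were of the usual size, with a median of 1918 bp. Because lists of different length and calling are ranked separately, a low rank is not a measured loss of accessibility.

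The lowest RANKL scores among the members belonged to broad peaks that also scored just over 170. On chromosome 15 at 81976322 to 81979694 the scores were 171 without and 50.2 with RANKL. The site on chromosome 12 at 17272198 to 17274318 scored 173 and 50.5. The last, at 6645962 to 6649035 of chromosome 13, scored 174 and 50.5. These 3 sites lay 144 to 735 bp off centre.

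**Figure D4:**
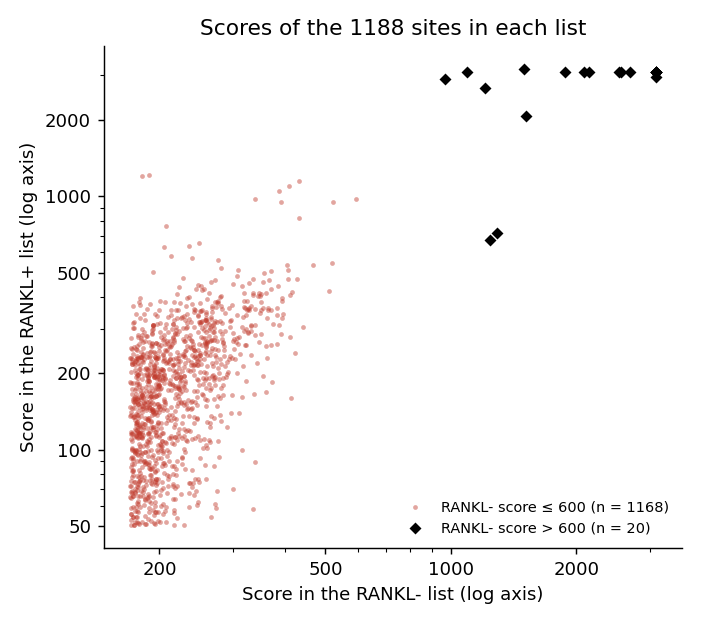
Score of each of the 1188 members in the list without RANKL (horizontal axis) and of its peak in the RANKL list (vertical axis), both on log axes; diamonds are the 20 members that scored over 600 without RANKL. These 20 stand apart on the horizontal axis, and all score 671 or more with RANKL.

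A small group stood apart at high scores. The limit of 600 used to describe it was chosen after the values were seen. No genome was used, so repeats, read mapping and copy number were not checked at these sites or at any other member. Their high scores are therefore not read as strong regulatory elements. Such scores were not particular to the members: of 41 strong sites over 600 without RANKL, 20 were members, 19 had 2 or more RANKL peaks and 2 had 1 wide RANKL peak. No member scored between 592.25 and 968.94 without RANKL. The 20 members above this gap scored 969 to 3109 without RANKL and 671 to 3187 with RANKL. The other 1168 members reached 592 without and 1214 with RANKL. A score of exactly 3100 recurred in the lists, at 15 peaks without RANKL and 40 with RANKL. The score is not defined in the sources used here, so whether 3100 is a ceiling could not be told. Equal scores of 3100 are therefore not read as equal strength. Among the 20 members, 7 scored 3100 or more without RANKL, 14 with RANKL, and 6 in both.

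Among the members, the highest scores without RANKL did not go with broad peaks. The widths and spacing of the 21 other strong sites over 600 were not summarised. Neither trait is therefore shown to be particular to the members. At the 20 sites the broad peak was 507 to 1813 bp wide with a median of 1487 bp, against 1977 bp for the other members, and 18 of the 20 were narrower than the lower quartile of the members. The RANKL peak at these sites was a median of 294 bp wide, against 443 bp. The centres were close, with a median distance of 35.8 bp and a maximum of 219 bp, against a median of 144 bp for the others. They lay on 14 chromosomes and were widely spaced, with 9 of 20 (45%) over 100 kb from any other peak without RANKL, against 132 of 1168 (11.3%).

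Of the 8 members with the highest scores without RANKL, 6 scored exactly 3100. These lay on chromosome 3 at 5860403 to 5861057, chromosome 6 at 103598833 to 103599799, chromosome 9 at 35112080 to 35113812, chromosome 12 at 3109457 to 3110809, chromosome 19 at 37024826 to 37026345 and chromosome X at 139917337 to 139918235. Their RANKL peaks scored 3100 at all but the site on chromosome 19, which scored 2960. The highest of all was on chromosome 19 at 61275047 to 61276386, with 3109 without and 3100 with RANKL. The eighth was on chromosome 18 at 40467421 to 40468403, with 2691 and 3100. The highest RANKL score, 3187, was on chromosome 5 at 147071849 to 147073520, where the score without RANKL was 1500. On chromosome 4 at 70038448 to 70039937 the scores were 2091 without and 3100 with RANKL.

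A further 14 members scored over 600 with RANKL and 600 or less without. Their scores without RANKL went from 182 to 592, and their RANKL peaks were 81 to 662 bp wide with a median of 199 bp. The site on chromosome 9 at 123781516 to 123782539 scored 182 without and 1200 with RANKL. A site on chromosome 16, at 10974451 to 10975774, scored 188 without and 1214 with RANKL. Both sites were picked from the 14 after their values were seen. Narrow and high went together here: all 9 members whose broad peak was under 1000 bp scored 630 or more with RANKL, and 5 of the 6 members whose RANKL peak was under 100 bp scored over 600. Elsewhere among the members a narrow RANKL peak went with a low score. The median RANKL score was 62.8 at RANKL widths of 100 to 199 bp (n = 73) and 266 at 600 to 699 bp (n = 186). High scores at the narrowest RANKL peaks were not particular to the members. At the weaker sites the median RANKL score was 317 under 100 bp (n = 11) and 58.3 at 100 to 199 bp (n = 1037).

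The narrowest RANKL peaks among the members came from these groups. On chromosome 1 at 24619339 to 24619845 a broad peak of 507 bp, the narrowest among the members, held a RANKL peak of 81 bp at 24619550 to 24619630, with centres 2 bp apart and scores of 1240 and 671. On chromosome 4 at 28103555 to 28104435 the RANKL peak was also 81 bp wide, with scores of 248 and 656. On chromosome 18 at 68851529 to 68852512 it was 90 bp wide, with scores of 409 and 1095.

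The RANKL peaks at the upper end of the range lay at sites of differing score. The 3 members with RANKL peaks of 699 bp scored 407 without and 510 with RANKL on chromosome 6, 231 and 232 on chromosome 11, and 197 and 263 on chromosome 12. Their RANKL centres were 163, 68.5 and 7 bp from the centre of the broad peak.

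The members were spaced much like other sites of the list. The gap from a member to the nearest other peak without RANKL had a median of 23.1 kb (quartiles 10.6 and 47.0 kb). The median was 21.6 kb for strong sites with a wide RANKL peak, 24.97 kb for those with several, 23.6 kb for those with none and 20.9 kb for the weaker sites. Another peak without RANKL lay within 10 kb of 284 members (23.9%, interval 21.6 to 26.4%). Over all peaks of the list on these chromosomes it did so for 26.4% (interval 25.6 to 27.1%).

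The nearest other strong site was at a median of 112 kb and the nearest other member at a median of 297 kb (quartiles 90.04 and 902 kb). Another member lay within 10 kb of 29 members (2.44%, interval 1.70 to 3.48%) and within 100 kb of 320 (26.9%, interval 24.5 to 29.5%). For strong sites with several RANKL peaks, a member lay within 100 kb of 24.6% (interval 22.1 to 27.3%). Members were thus about as close to other members as other strong sites were. With 1 library per group, the difference was not tested.

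**Figure D5:**
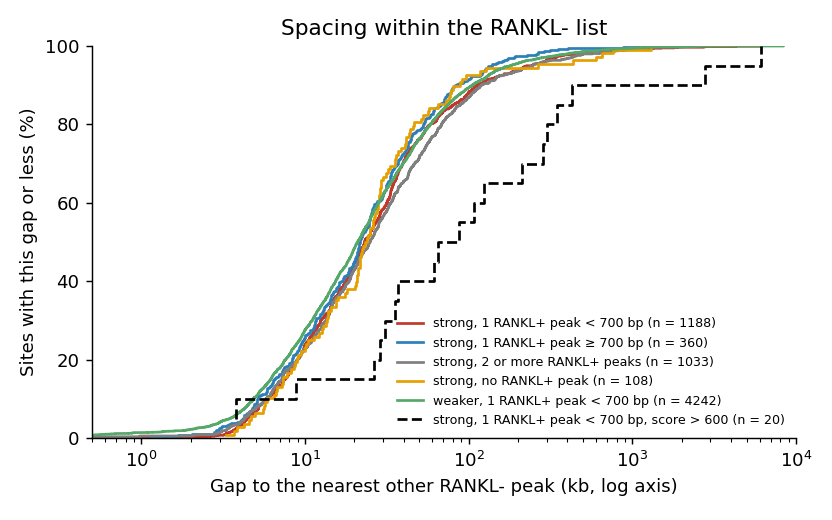
Share of sites (vertical axis) whose gap to the nearest other peak without RANKL is at or below the value on the horizontal axis (kb, log axis), for the members, the 3 other kinds of strong site and the weaker sites with 1 RANKL peak under 700 bp. The curves of these 5 sets run close together, with medians of 20.9 to 24.97 kb, while the dashed curve of the 20 members scoring over 600 lies to the right, with a median of 76.0 kb.

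The rule allowed no second RANKL peak on the broad peak of a member, so only distances beyond its edges are informative. The next RANKL peak was at a median of 26.1 kb from the broad peak (quartiles 11.9 and 55.2 kb). At the weaker sites the median was 24.2 kb, and at strong sites with 1 wide RANKL peak 22.3 kb. For the members, the counts by distance were as follows. The next RANKL peak lay within 1 kb at 5 members (0.421%, interval 0.180 to 0.981%), within 5 kb at 65 and within 10 kb at 235 (19.8%, interval 17.6 to 22.1%). The share within 5 kb was 5.47% at the members (interval 4.32 to 6.91%), 9.92% at the weaker sites (interval 9.06 to 10.9%) and 8.61% at strong sites with 1 wide RANKL peak (interval 6.13 to 12.0%).

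The peak next to a member often had a RANKL peak too, as did the neighbours of other sites. The nearest other peak without RANKL had a RANKL peak on it at 763 of 1188 members (64.2%, interval 61.5 to 66.9%). This was so for 63.9% of strong sites with several RANKL peaks (interval 60.9 to 66.8%), for 61.1% of those with none (interval 51.7 to 69.8%) and for 60.5% of the weaker sites (interval 59.0 to 62.0%). Over all peaks of the list on these chromosomes it was 60.3% (interval 59.4 to 61.1%). Neighbouring peaks share neighbours, so these intervals are too narrow.

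The closest pair of members lay on chromosome 2, at 131029196 to 131031537 and at 131035127 to 131037141, 3.59 kb apart. Their scores were 197 and 172 without RANKL and 264 and 251 with RANKL. The next closest were 3.71 kb apart on chromosome 10, at 80812034 to 80814593 and 80818303 to 80822282, and 3.795 kb apart on chromosome 19, at 37024826 to 37026345 and 37030141 to 37031699. Both members of the pair on chromosome 19 belonged to the 20 that scored over 600.

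The most isolated member lay on chromosome X at 109483799 to 109485417, 6151 kb from the nearest other peak without RANKL, with scores of 969 and 2901. On chromosome 1 at 113760504 to 113762425 the gap was 4279 kb and the scores were 198 and 52.5. On chromosome 6 the site at 103598833 to 103599799, named above, had a gap of 2789 kb. On chromosome 1 at 31005162 to 31007684 the gap was 2718 kb, with scores of 277 and 561. So 2 of the 4 most isolated members belonged to the group of 20 with the highest scores, and the others did not.

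The fullest stretch of 1 Mb lay on chromosome 10 between 80138652 and 81107408. It held 10 members among 17 strong sites and 43 peaks without RANKL, and 50 RANKL peaks. The members there scored 175 to 354 without RANKL and 79.7 to 363 with RANKL. The highest was at 80362405 to 80364373, where the RANKL peak at 80363061 to 80363719 had its centre 1 bp from that of the broad peak. Offsets of over 500 bp occurred at 4 of the 10. A stretch on chromosome 7 between 133838005 and 134733020 was next, apart from those that overlap the first, with 9 members among 14 strong sites.

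On chromosome X the 12 members scored 178 to 3100 without RANKL, and 4 of them scored over 600 with RANKL. The RANKL peak there was a median of 263 bp wide, against 442 bp over all members. A pair of members lay 11.8 kb apart at 7708616 to 7710216 and 7722009 to 7723810, with scores of 349 and 248 without RANKL and 347 and 216 with RANKL. At 121267453 to 121268827 a member lay 0.098 kb from a broad peak that held 4 RANKL peaks. That site scored 235 without RANKL and 637 with RANKL.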

How the data were processed

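DNase-seq was run on 1 library of RAW264 cells without RANKL and 1 with RANKL. The submitters' processing notes name mm9 as the build and, as tools, MACS2 and Bowtie2 2.0.0. The deposited files are peak lists with a position and a score per peak, called per library. The authors' score is not defined in the sources used here and served only to filter and rank peaks within a list. The sources used here give no calling threshold, control or depth, so no value has a depth-based interval.

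Overlaps, centres, gaps and percentiles were computed with pandas 2.3.3, numpy 2.4.6 and scipy 1.17.1 under Python 3.11.15, and figures with matplotlib 3.10.9. The overlap count equalled that of bedtools 2.31.1 for 13492 of 13492 peaks. On simulated data, 2000 of 2000 planted sites, with overlaps of 1 bp and abutting peaks among them, were classified correctly. A centre is the midpoint of a peak, and a gap runs between facing ends. Intervals are 95% Wilson intervals. Named sites were, among members, the 8 highest scores without RANKL, the 3 narrowest and 3 widest RANKL peaks, the 4 largest offsets, the 3 highest and 3 lowest RANKL scores, the 4 most isolated, the closest pair, the peaks next to each limit and the fullest 1 Mb. Other sites were picked after their values were seen. The members and lists were chosen with earlier results of these data known. Annotation and fixed gene lists were not used here, because the supplied gene table is of another build.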

Additional observations from a re-analysis of the deposited data

How the results depend on the processing

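Of 70 alternative values (7 results under 10 settings), 52 lay inside the interval of the reported share or median or, for the count, within a factor of 1.5. For medians that is the 95% order-statistic interval. Some of the 52 could not move. The share with several RANKL peaks does not depend on the RANKL width limit, and the chromosome 3 share does not depend on chromosome X. A score minimum of 200 left 676 members, a median centre distance of 126 bp, a RANKL percentile of 91.4, a broad width of 2005 bp and 41.5% of strong sites with several RANKL peaks. A minimum of 150 gave a RANKL percentile of 84.0 and 36.0% with several. A width limit of 500 bp left 766 members, with a RANKL percentile of 80.03, a gap of 26.7 kb, a broad width of 1920 bp and 14.5% of the strong chromosome 3 sites. A limit of 1000 bp gave a RANKL percentile of 90.2, a broad width of 2015 bp and 43.5% of those sites. These shifts follow from which sites each limit admits. With RANKL peaks closer than 1 kb merged, 1426 sites were members, the RANKL percentile was 82.8 and 1.12% of strong sites kept several RANKL peaks. Peaks that share 1 broad peak lie close together, so a merging distance of 1 kb largely fixes this fall in advance. Being single holds for the peaks as listed, and its dependence on how finely RANKL peaks were called was not tested. Leaving out chromosome 3 from 55 to 130 Mb, chosen after the data were seen, gave 39.4% of its strong sites. Requiring 50% of the RANKL peak inside, 1 RANKL peak within 1 kb, or chromosomes 1 to 19 alone, and leaving out the 20 highest members (added after the data were seen), moved none of the 7. The location and the share with several RANKL peaks were added to all settings after the data were seen. No paired analysis was possible because each group had 1 library, and for the same reason replicates could not be left out in turn. Scores cannot be read across lists while the read depth is unknown.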
